A study of Mus musculus with 10 samples.

Results

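The genes described here are 32 genes of cholesterol synthesis and sterol homeostasis, out of the 21853 protein-coding genes listed for mouse embryonic stem cells (ESCs). They were listed by name for their place in the pathway. Of the 32, 18 encode enzymes of the mevalonate and sterol synthesis route, 5 control the SREBP transcription factors, 4 move or esterify sterols inside the cell, and 5 act in sterol export, lipoprotein receptor turnover and LXR signalling. The list is not complete, since some enzymes and receptors of the pathway were not analysed here. In the tests, 31 of the 32 genes were included, because Nr1h3 (LXRα) did not reach 1 TPM in at least 2 libraries.

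Cells build cholesterol from acetyl-CoA by way of mevalonate, isoprenoid diphosphates, squalene and lanosterol, and some of the isoprenoids leave the route for protein prenylation, ubiquinone and dolichol. When sterols in the endoplasmic reticulum are low, SCAP escorts SREBP proteins to the Golgi, where they are cleaved and released to switch on the synthesis genes, while sterols hold the complex back through INSIG proteins. Oxidized sterols activate LXR receptors, which switch on export genes, and AMPK, an energy-sensing kinase, is known to phosphorylate and restrain enzymes of lipid and sterol synthesis.

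Of each of 5 lines, 2 bulk RNA libraries were sequenced. Naïve ESCs were the J1 line without a knockout, AKO is labelled as lacking AMPK, GKO as lacking glycogen synthase (GYS1) and DKO as lacking both, and primed ESCs (PJ1) were the epiblast-like counterpart. J1 is described as grown on gelatin with 15% FBS, LIF and inhibitors of MEK and GSK3 (PD0325901 and CHIR99021). PJ1 is described as grown on Matrigel with KnockOut Serum Replacement, bFgf and Activin. The study's methods also give another medium for each state and do not say which one the sequenced cells had. Pluripotent state and medium (serum lipids included) therefore cannot be told apart in the comparison of PJ1 with J1. The study made the Gys1 lesion with Cas9 as a small insertion or deletion in a coding exon, and it describes commercial plasmids for the AMPKα1 gene Prkaa1. The methods mention clones checked for the edit, with one that was not targeted as the control, but do not say which clone or clones gave each sequenced line. Nor do the sources say whether its libraries were separate cultures, so the p-values measure only the spread between libraries, which may be technical. A difference between lines can therefore also be a difference between clones. All comparisons with naïve ESCs share the same control libraries. The listed TPM of a library summed to between 500162 (primed ESCs) and 578952 (AKO), with 578066 and 565209 in naïve ESCs, 531062 and 559117 in DKO and 517712 and 531306 in GKO, and the summed levels of lists given here were not rescaled for this.

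As a check of the labels, Prkaa1 was at 15.5 and 16.6 TPM (a transcript share) in naïve ESCs, 7.24 and 6.94 in AKO, 2.30 and 2.04 in DKO, 12.2 and 11.96 in GKO, and 13.4 and 13.7 in the primed line. Both lines labelled as lacking AMPK were below every other library, and DKO was below AKO (log2 change -1.35, adjusted p = 3.39e-06). The AMPKα2 gene Prkaa2, for which the study describes no edit, was detected in every library. Its mean TPM was 2.40 (naïve), 2.57 (AKO), 3.20 (DKO), 3.28 (GKO) and 8.84 (primed). Against naïve ESCs it passed as higher in GKO (limma log2 change 0.33, adjusted p = 0.00785), DKO (0.30, 0.0136) and primed ESCs, but not in AKO (0.862). RNA levels cannot show whether AMPK activity remained in AKO or DKO. The Gys1 mRNA measured 11.5 and 10.8 TPM in the naïve libraries, 9.70 and 9.98 in GKO and 12.1 and 11.7 in DKO. An mRNA level does not check a small lesion in a coding exon. Of 9 naïve ESC markers, summed levels were 2515 and 2433 TPM in naïve ESCs, 2479 and 2498 in AKO, 2638 and 2720 in DKO, 2498 and 2596 in GKO, and 763 and 713 in the primed line, with Pou5f1 the most abundant. Of 6 primed ESC markers the sums were 49.3 and 49.8 TPM in naïve ESCs, 41.2 and 40.5 in AKO, 48.9 and 50.7 in DKO, 69.3 and 69.3 in GKO, and 399 and 431 in the primed line. The sums hide changes in single genes. Of the naïve markers, 4 in GKO and 5 in DKO were higher than in naïve ESCs (limma adjusted p under 0.05), and 0 were lower. Among all genes 24.7% and 21.7% were higher, and 27.1% and 24.3% lower. Primed markers changed in opposite directions. Zic2 was at 14.4 and 13.7 TPM in the naïve line, 4.48 and 5.37 in DKO and 33.7 and 33.3 in GKO, Dnmt3b at 27.5 and 28.3 in naïve ESCs, 41.02 and 41.3 in DKO and 28.3 and 27.6 in GKO, and Otx2 at 5.71 and 6.10 in naïve ESCs, 2.39 and 2.98 in DKO and 5.28 and 6.09 in GKO. The sums separated primed ESCs from the other lines, but no marker checked the GYS1 label of GKO or DKO. The primed libraries were unequal for Fgf5 (10.7 and 0.447 TPM) and Fgf8 (20.6 and 1.36).

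Markers of other cell types were low. The summed level of 6 fibroblast markers lay between 2.38 and 3.42 TPM in naïve ESCs, AKO and DKO, reached 7.97 and 9.22 in GKO, nearly all of it Thy1, and 9.10 and 15.3 in primed ESCs, where Col1a2 (4.18 and 4.84) and Thy1 (2.61 and 8.11) held most. Postn and Lum were near 0 in all libraries. For 5 primitive endoderm markers, the sum was 2.03 and 2.07 TPM in GKO and at most 1.15 in naïve ESCs, AKO and DKO. In primed ESCs it was 5.35 and 0.845, with Sox17 at 3.04 and 0.303 and Gata6 at 1.505 and 0.225, so the first primed library held more of this signal. The sum of 4 trophectoderm markers, most of it Cdx2 in the J1 lines, was 7.37 and 7.38 TPM in DKO and 6.88 and 7.39 in GKO, against 3.51 and 3.29 in naïve ESCs, 2.63 and 2.66 in AKO and 1.25 and 0.220 in primed ESCs, while Gata3 moved the other way in GKO (0.048 and 0.101 TPM against 0.911 and 0.629 in naïve ESCs) and Elf5 and Krt7 were low or absent. The part of such cells in the results was not tested. In bulk RNA, a change in the share of cells and a change in RNA per cell cannot be told apart.

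Primed ESCs differed most from naïve ESCs. Of the 31 sterol genes tested, 27 passed an adjusted p of 0.05 (limma, all genes), beside 80.0% of the 12060 genes tested, and 20 were higher and 7 lower, beside 37.4% and 42.5%. Their median log2 change was 0.72, against -0.05 for all genes. In GKO, 17 passed against naïve ESCs, beside a background of 51.7%, with 12 higher (24.7% of all genes) and 5 lower (27.1%). In DKO, 21 passed, beside 46.0%, but 16 of them were lower (24.3% of all genes) and 5 higher (21.7%). The median change of the sterol genes was 0.05 in GKO and -0.18 in DKO, and that of all genes was -0.01 in both. The total share of sterol genes that passed in GKO was close to the background.

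No sterol gene passed in AKO against naïve ESCs. With limma the count was 0 of 31 (6 with an unadjusted p under 0.05), beside 0.224% of all genes, 0.0663% higher and 0.158% lower. At an unadjusted p under 0.05 there were 1231 of the 12060 genes. DKO against AKO, which differ in GYS1 by label and also in Prkaa1, gave 20 of 31, beside 46.3%, with 5 higher (22.4%) and 15 lower (23.9%). GKO against DKO gave 18 of 31, beside 43.5%, with 16 higher (21.2% of all genes) and 2 lower (22.4%). The interaction term, which takes DKO less AKO from GKO less naïve, passed for 11 of 31, beside 25.8%. All 11 were positive, beside 12.8% positive and 13.1% negative among all genes. Prkaa1 itself had an interaction of 0.97 (adjusted p = 0.000291), so neither this term nor DKO against AKO isolates the loss of GYS1.

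**Figure D1:**
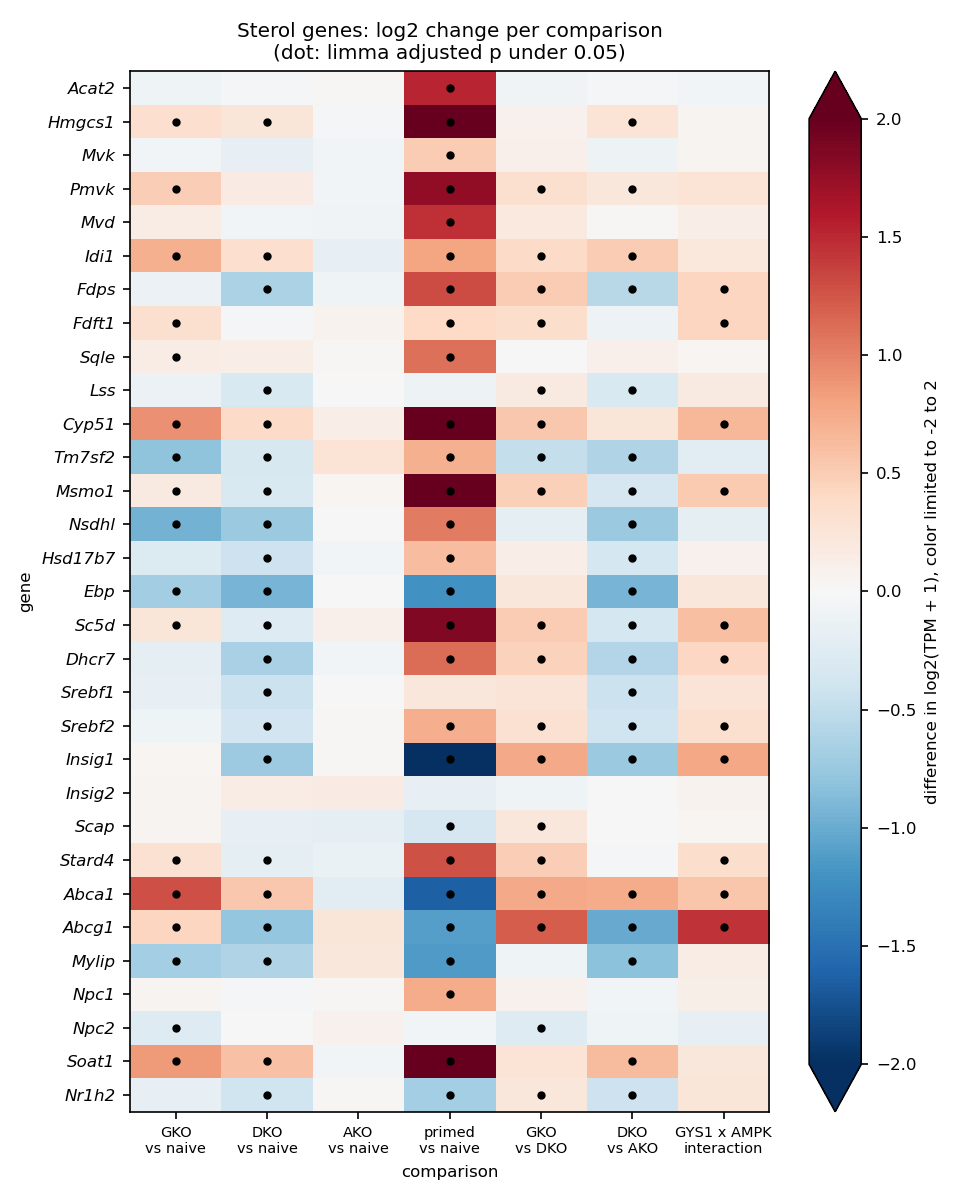
Difference in log2(TPM + 1) for the 31 tested sterol genes (vertical axis) in each of 7 comparisons (horizontal axis). Red is higher and blue lower in the line named first, the color is limited to between -2 and 2, and a dot marks a limma adjusted p under 0.05. The AKO column holds no dot, and the primed column holds 27.

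The 18 synthesis enzymes together were at 781 and 782 TPM in naïve ESCs, 791 and 763 in AKO, 692.5 and 697 in DKO, 821 and 839 in GKO, and 2225 and 2012 in the primed line. The sum was thus lowest in DKO and highest in primed ESCs, with no overlap between those lines and naïve ESCs. In primed ESCs 16 of the 18 were higher, 1 was lower and 1 did not pass (all genes 37.4% higher, 42.5% lower), with a median log2 change of 1.11. In GKO 8 were higher and 3 lower (all genes 24.7% and 27.1%), and in DKO 3 were higher and 9 lower (21.7% and 24.3%). Among the enzymes, Fdps and Hmgcs1 had the highest mean TPM in naïve ESCs, and Hsd17b7 the lowest.

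Hmgcs1 encodes the synthase that condenses acetyl-CoA with acetoacetyl-CoA ahead of mevalonate. It was at 107 and 105 TPM in the naïve line, 106 and 101 in AKO, 126 and 125 in DKO, 133 and 134 in GKO, and 474 and 456 in the primed line. Both primed libraries were far above the other 8, a 4.38-fold ratio of means to naïve ESCs (log2 change 2.12, SE 0.04, adjusted p = 4.41e-10). Pmvk, phosphomevalonate kinase, was at 15.2 and 15.1 TPM in the naïve line, 14.9 and 14.2 in AKO, 16.7 and 17.6 in DKO, 22.1 and 21.3 in GKO, and 57.9 and 51.1 in the primed line (log2 change 1.78, SE 0.07, adjusted p = 1.72e-08 in primed ESCs). The other early enzymes, Acat2 (cytosolic thiolase), Mvk (mevalonate kinase) and Mvd (mevalonate diphosphate decarboxylase), passed in primed ESCs alone among the comparisons with naïve ESCs, with ratios of mean TPM of 2.93, 1.45 and 2.81. Under alternatives, Mvd passed in GKO with quantile normalization (adjusted p = 0.0391). Mvk did in DKO when only the lines compared were fitted (0.0330).

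Idi1 encodes the isomerase that interconverts isopentenyl and dimethylallyl diphosphate. It was at 35.8 and 38.9 TPM in the naïve line, 30.9 and 35.5 in AKO, 48.8 and 46.3 in DKO, 62.2 and 61.7 in GKO, and 66.1 and 64.1 in the primed line. GKO reached nearly the primed level (log2 change 0.72, SE 0.07, adjusted p = 5.63e-05 against naïve ESCs), and the 28 nearest tested genes on chromosome 13 had a median change of 0.35 there. In DKO Idi1 was also higher than in naïve ESCs (log2 change 0.34, adjusted p = 0.00361), and the median of those 28 genes was 0.26. Fdps, farnesyl diphosphate synthase at the branch to the isoprenoids, was at 129.5 and 125 TPM in the naïve line, 125 and 114 in AKO, 79.8 and 83.1 in DKO, 116 and 117 in GKO, and 336 and 294 in the primed line. It fell in DKO (log2 change -0.64, SE 0.07, adjusted p = 0.000133), where both libraries were below all others, and GKO was above DKO (log2 change 0.51, SE 0.07, adjusted p = 0.000472). In GKO against naïve ESCs it did not pass (adjusted p = 0.160), but did as lower when only the lines compared were fitted (0.0252).

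Squalene is made by Fdft1, oxidized by Sqle and closed to lanosterol by Lss. Fdft1 was at 28.2 and 30.6 TPM in the naïve line, 31.7 and 29.96 in AKO, 28.6 and 28.8 in DKO, 35.9 and 38.3 in GKO, and 40.3 and 37.7 in the primed line, and it passed in GKO and in primed ESCs. It lies on chromosome 14, whose other 391 tested genes had a median change of 0.47 in GKO, 0.36 in DKO and 0.54 in primed ESCs, so Fdft1 was below its chromosome in each. Sqle measured 62.5 and 62.6 TPM in naïve ESCs and 142 and 129.7 in primed ESCs, with 63.4 to 69.9 in the knockout lines. Lss measured 23.1 and 21.6 TPM in naïve ESCs, 17.1 and 18.7 in DKO and 20.6 and 21.01 in primed ESCs, and was the only enzyme that did not pass in primed ESCs (adjusted p = 0.198).

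Past lanosterol, Cyp51 removes a methyl group as the first of these steps. Its level was 25.2 and 24.4 TPM in naïve ESCs, 26.5 and 28.4 in AKO, 32.4 and 33.02 in DKO, 46.1 and 49.4 in GKO, and 125 and 95.7 in the primed line. The libraries of GKO were above those of naïve ESCs, AKO and DKO without overlap (log2 change 0.92, SE 0.10, adjusted p = 0.000137 against naïve ESCs; log2 change 0.53, SE 0.10, adjusted p = 0.00362 against DKO), and primed ESCs were higher still (log2 change 2.10, SE 0.10, adjusted p = 1.20e-07). Cyp51 was also higher in DKO than in naïve ESCs (log2 change 0.39, adjusted p = 0.0151), a call that some alternatives removed. The 29 nearest tested genes on chromosome 5 had a median change of 0.35 in GKO and 0.23 in DKO. Msmo1, which oxidizes the paired methyl groups, was at 81.7 and 85.9 TPM in the naïve line, 88.4 and 83.7 in AKO, 66.8 and 69.2 in DKO, 94.3 and 96.3 in GKO, and 388 and 353 in the primed line (log2 change 2.13, SE 0.06, adjusted p = 2.09e-09). It fell in DKO (adjusted p = 0.00245). A rise in GKO (adjusted p = 0.0222) lost its call without replicate 1 of naïve ESCs (0.142), replicate 1 of GKO (0.0637) or replicate 2 of GKO (0.102).

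Sc5d, the desaturase of a late step, was at 16.7 and 17.1 TPM in the naïve line, 18.4 and 18.1 in AKO, 14.6 and 13.4 in DKO, 20.7 and 19.9 in GKO, and 66.8 and 61.02 in the primed line (log2 change 1.86, SE 0.06, adjusted p = 8.61e-09). It had the same order of lines as Msmo1, with DKO lowest, then naïve ESCs and AKO, then GKO, then primed ESCs. Its call in GKO was lost without replicate 1 of naïve ESCs (0.0542) or replicate 1 of GKO (0.0589), and its call in DKO without replicate 2 of naïve ESCs (0.0555) or replicate 2 of DKO (0.0657). Dhcr7, the reductase that acts on 7-dehydrocholesterol, was at 33.7 and 37.4 TPM in the naïve line, 35.8 and 32.6 in AKO, 23.4 and 21.5 in DKO, 29.7 and 33.1 in GKO, and 75.3 and 81.4 in the primed line. It fell in DKO (log2 change -0.64, SE 0.08, adjusted p = 0.000305) and did not pass in GKO (adjusted p = 0.0996).

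Of the post-lanosterol enzymes, Ebp, Nsdhl and Tm7sf2 passed as lower in both GKO and DKO. Ebp, the sterol isomerase, was at 60.7 and 57.03 TPM in the naïve line, 57.5 and 60.4 in AKO, 30.3 and 30.7 in DKO, 36.1 and 35.6 in GKO, and 27.6 and 22.5 in the primed line. It fell in GKO (log2 change -0.70, SE 0.08, adjusted p = 0.000165) and in DKO (log2 change -0.93, SE 0.08, adjusted p = 5.23e-05; log2 change -0.93, SE 0.08, adjusted p = 4.77e-05 against AKO), and it was the only enzyme lower in primed ESCs (adjusted p = 9.70e-07). Nsdhl, which removes the carboxylated methyl groups, was at 24.1 and 24.2 TPM in the naïve line, 25.1 and 23.1 in AKO, 13.3 and 14.6 in DKO, 12.04 and 12.2 in GKO, and 58.3 and 43.8 in the primed line. It fell in GKO (log2 change -0.94, SE 0.11, adjusted p = 0.000189) and in DKO (log2 change -0.75, SE 0.11, adjusted p = 0.000812; log2 change -0.75, SE 0.11, adjusted p = 0.000811 against AKO), but was higher in primed ESCs (adjusted p = 2.48e-05). Both genes lie on chromosome X, where the other 429 tested genes had a median change of -0.05 in GKO and -0.26 in DKO. Around Ebp the 40 nearest tested genes had medians of -0.32 and -0.25, and around Nsdhl -0.45 and -0.35. Both enzymes fell by more than these medians, and the part of the chromosome in their change was not tested.

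Tm7sf2, a sterol reductase, was at 19.5 and 22.5 TPM in the naïve line, 25.5 and 25.5 in AKO, 17.99 and 15.2 in DKO, 11.2 and 12.003 in GKO, and 33.8 and 35.9 in the primed line. GKO was lowest (log2 change -0.80, SE 0.09, adjusted p = 0.000122), on a chromosome (19) whose other 392 tested genes had a median change of -0.40 in that line. It was also lower in DKO (log2 change -0.32, adjusted p = 0.0161), close to the median of its chromosome (-0.27) and of its 40 nearest tested genes (-0.30), and with a call lost without replicate 2 of naïve ESCs (0.125) or replicate 2 of DKO (0.117). Hsd17b7, the ketosteroid reductase of the demethylation complex, was at 8.85 and 10.01 TPM in the naïve line, 6.79 and 6.87 in DKO, 7.15 and 8.13 in GKO, and 17.3 and 13.1 in the primed line. It passed as higher in primed ESCs, while its levels in GKO and DKO were below those of naïve ESCs. In GKO it did not pass (adjusted p = 0.105), but did as lower when only the lines compared were fitted (0.0467) or without the primed libraries (0.0336). In DKO it passed (adjusted p = 0.0268), but not with no filter on low values (0.0571), nor without replicate 2 of naïve ESCs (0.152), replicate 1 of DKO (0.101) or replicate 2 of DKO (0.0906).

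**Figure D2:**
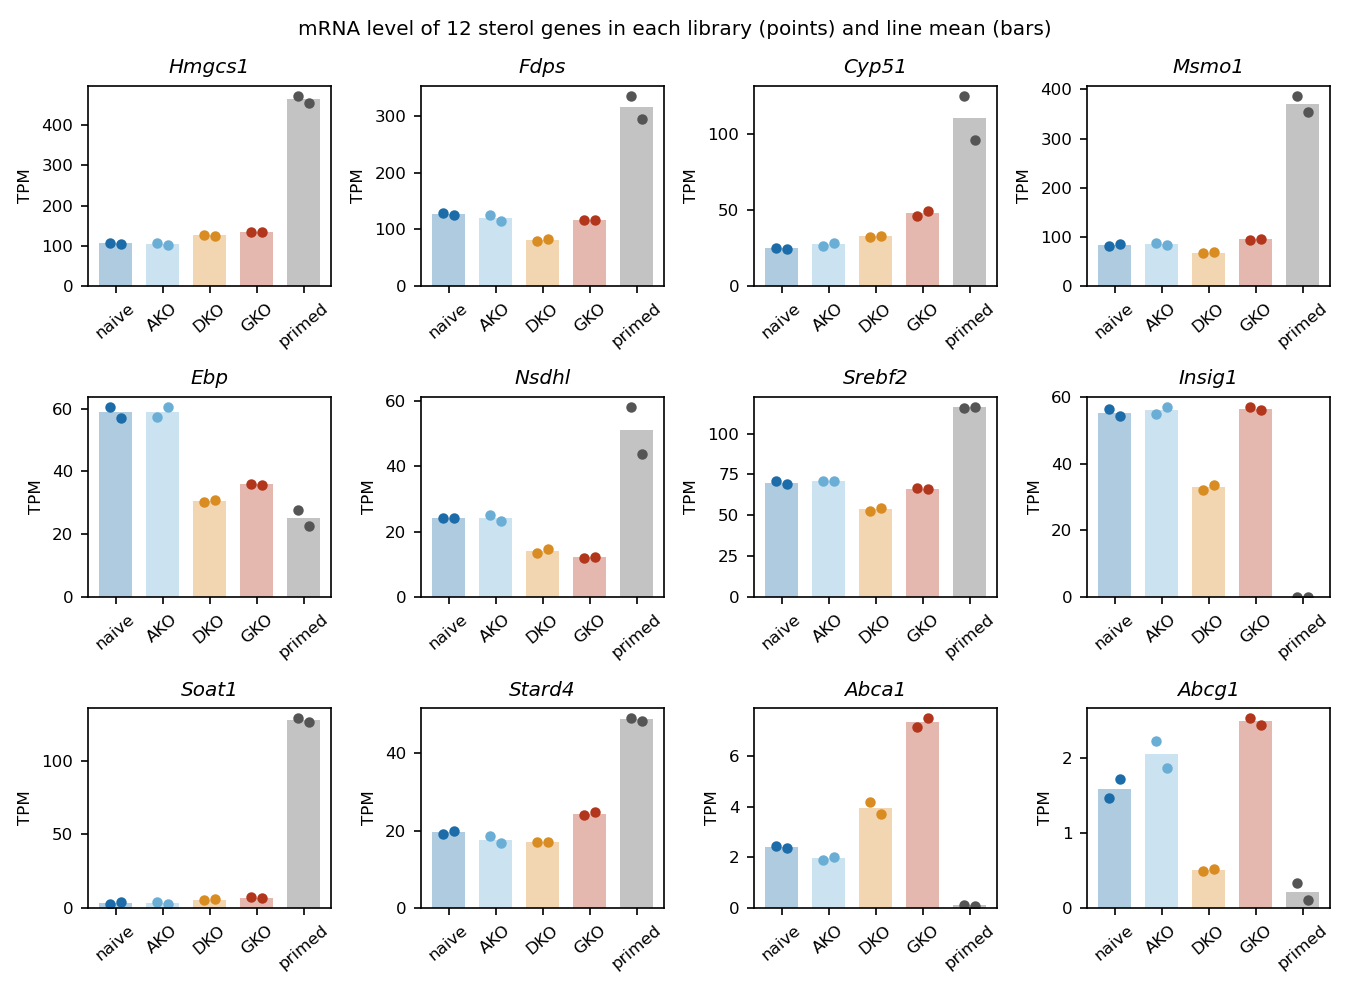
TPM (vertical axis, from 0, a separate scale for each gene) of 12 sterol genes in the 5 lines, with both libraries of a line as points and their mean as a bar. Insig1 is near 0 in primed ESCs, Soat1 is above 126 TPM there and below 7.2 TPM in the other lines, and Abca1 and Cyp51 are higher in GKO than in naïve ESCs, AKO or DKO.

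Of the 5 SREBP control genes, 3 passed in DKO (all lower, beside 24.3% of all genes) and 0 in GKO, beside 51.7%. Srebf2, which encodes the SREBP that drives sterol genes, was at 70.9 and 69.1 TPM in the naïve line, 70.996 and 70.9 in AKO, 52.8 and 54.4 in DKO, 66.5 and 65.9 in GKO, and 116 and 117 in the primed line. It fell in DKO (log2 change -0.38, SE 0.04, adjusted p = 0.000100) and did not pass in GKO (log2 change -0.08, SE 0.04, adjusted p = 0.120). The other 461 tested genes of chromosome 15 had a median change of -0.16 in DKO and -0.15 in GKO. For the 40 nearest tested genes the medians were -0.18 and -0.24. The part of the chromosome in the change of Srebf2 was not tested. Its interaction was 0.32 (SE 0.05, adjusted p = 0.00354). Srebf1, whose product leans toward fatty acid genes, was at 38.2 and 37.6 TPM in the naïve line, 37.6 and 38.4 in AKO, 25.9 and 30.3 in DKO, 34.8 and 32.5 in GKO, and 52.1 and 37.8 in the primed line. The fall in DKO (log2 change -0.42, SE 0.13, adjusted p = 0.0248) lost its call without replicate 1 or replicate 2 of naïve ESCs (adjusted p = 0.100 and 0.0847), without replicate 1 of DKO (0.157) and with no filter on low values (0.0572); its adjusted p ranged from 0.00119 to 0.157 over all alternatives. In GKO it did not pass (log2 change -0.17, SE 0.13, adjusted p = 0.300), although it did when only the lines compared were fitted (adjusted p = 0.0230).

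Insig1 encodes an anchor that, when sterols are present, keeps SCAP in the endoplasmic reticulum. It was at 56.5 and 54.3 TPM in the naïve line, 54.99 and 57.2 in AKO, 32.2 and 33.7 in DKO, 57.2 and 56.1 in GKO, and 0 and 0.015 in the primed line. DKO alone among the J1 lines was lower (log2 change -0.73, SE 0.05, adjusted p = 1.39e-05 against naïve ESCs; log2 change -0.75, SE 0.05, adjusted p = 1.16e-05 against AKO), and GKO was above DKO (log2 change 0.76, SE 0.05, adjusted p = 1.20e-05) and did not pass against naïve ESCs (log2 change 0.03, SE 0.05, adjusted p = 0.625). In primed ESCs the mRNA was listed at 0 in one library and nearly so in the other (log2 change -5.81, SE 0.05, adjusted p = 3.18e-12; -9.02 with a pseudocount of 0.1).

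Its paralog Insig2 was at 9.77 and 9.85 TPM in the naïve line, 10.8 and 11.3 in AKO, 11.5 and 10.5 in DKO, 10.9 and 9.62 in GKO, and 8.59 and 8.76 in the primed line. It passed in none of the 7 comparisons (log2 change 0.06, SE 0.07, adjusted p = 0.556 in GKO; log2 change 0.15, SE 0.07, adjusted p = 0.136 in DKO). With quantile normalization, however, Insig2 passed in primed ESCs (adjusted p = 0.0117). Scap was at 29.2 and 27.6 TPM in the naïve line, 25.98 and 23.9 in AKO, 25.1 and 25.2 in DKO, 28.1 and 30.9 in GKO, and 23.3 and 21.5 in the primed line. It did not pass in GKO (log2 change 0.05, SE 0.07, adjusted p = 0.546) or DKO (log2 change -0.17, SE 0.07, adjusted p = 0.0690), but in DKO it did when only the lines compared were fitted (adjusted p = 0.0258) or without the primed libraries (0.0424), in a range up to 0.291. In primed ESCs Scap was lower (adjusted p = 0.00143).

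The genes beside Insig1 were looked at because of its level in primed ESCs, and so were chosen after the values were seen. Insig1 (ENSMUSG00000045294) is a plus-strand gene at chr5:28276315-28283668 in GRCm39. The next genes were low in primed ESCs as well, with En2 at 5.22 and 5.07 TPM in naïve ESCs and 0.851 and 0.134 in primed ESCs, and Cnpy1 at 3.91 and 0.290 in primed ESCs against 49.02 and 51.8. Upstream, Htr5a, too low to be tested, was at 0.713 and 0.485 TPM in the naïve line and 0 and 0.020 in primed ESCs. Farther out, levels in primed ESCs were similar, lower or higher, with Rbm33 at 20.7 and 20.7 TPM in naïve ESCs and 19.5 and 18.8 in primed ESCs on one side, and Paxip1 at 14.1 and 12.3 in primed ESCs against 22.3 and 21.6 on the other, where Paxip1 was also lower (adjusted p = 8.98e-06). Dpp6, beyond Paxip1, was higher in primed ESCs (1.83 and 1.84 TPM against 0.171 and 0.114 in naïve ESCs), as was Shh, beyond Rbm33 (1.95 and 0.215 against 0.016 and 0.016). The 40 nearest tested genes had a median change of -0.18. Whether the neighbours and Insig1 share a cause was not tested.

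**Figure D3:**
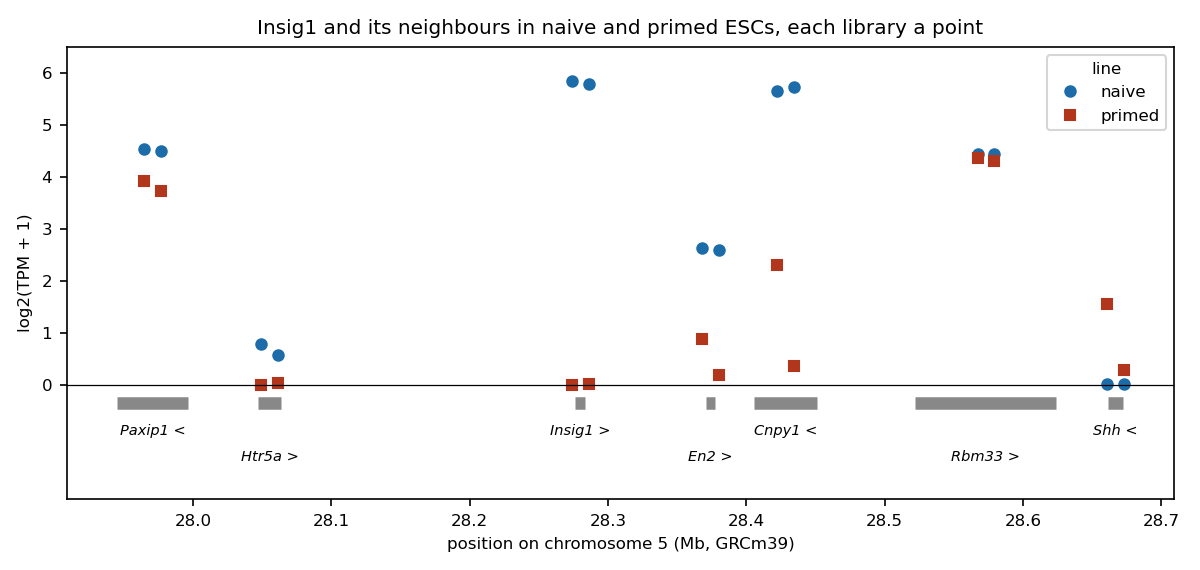
Level, as log2(TPM + 1), of Insig1 and its neighbours in both libraries of naïve (circles) and primed (squares) ESCs, by position on chromosome 5 in GRCm39. Grey bars show the extent of each gene and arrowheads its strand. Insig1, En2 and Cnpy1 are lower in primed ESCs, and Rbm33 is at similar levels in both.

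Among the genes of sterol transport and esterification, Soat1 moved most. It encodes the enzyme that esterifies cholesterol for storage in lipid droplets, and was at 2.96 and 4.02 TPM in the naïve line, 3.87 and 2.82 in AKO, 5.50 and 5.87 in DKO, 7.18 and 6.91 in GKO, and 129.5 and 127 in the primed line. The primed level was 36.7 times the naïve level as a ratio of means (log2 change 4.86, SE 0.13, adjusted p = 2.42e-09), the largest rise in primed ESCs among the 31 genes. GKO and DKO were also higher than naïve ESCs without overlap (log2 change 0.85, SE 0.13, adjusted p = 0.000697 in GKO; log2 change 0.58, SE 0.13, adjusted p = 0.00606 in DKO).

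Stard4, a soluble carrier of cholesterol, was at 19.03 and 20.01 TPM in the naïve line, 18.7 and 16.7 in AKO, 17.1 and 17.1 in DKO, 24.1 and 24.7 in GKO, and 49.2 and 48.5 in the primed line. GKO and primed ESCs were above naïve ESCs, and the AKO libraries overlapped those of DKO. A fall in DKO (adjusted p = 0.0317) lost its call under median-ratio scaling (0.0740) and without replicate 1 or replicate 2 of naïve ESCs (0.0621 and 0.176) or of DKO (0.101 and 0.106). Npc1 and Npc2, which release cholesterol from lysosomes, differed from each other. Npc1 measured 6.66 and 6.52 TPM in naïve ESCs and 10.8 and 12.8 in primed ESCs, with 6.29 to 7.02 in the knockout lines, and passed in primed ESCs alone. Npc2 measured 48.2 and 47.2 TPM in naïve ESCs and 46.1 and 45.3 in primed ESCs, and passed in GKO (39.6 and 40.1 TPM, adjusted p = 0.000737).

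Abca1 and Abcg1 encode sterol export pumps that LXR switches on. Abca1 was at 2.45 and 2.38 TPM in the naïve line, 1.91 and 2.02 in AKO, 4.18 and 3.71 in DKO, 7.17 and 7.54 in GKO, and 0.128 and 0.069 in the primed line. Among the sterol genes its rise was the largest change in GKO (log2 change 1.29, SE 0.08, adjusted p = 6.04e-06), GKO was above DKO (log2 change 0.76, SE 0.08, adjusted p = 0.000126), and primed ESCs were lower (log2 change -1.64, SE 0.08, adjusted p = 9.78e-08; -3.68 with a pseudocount of 0.1). In DKO it was higher than in naïve ESCs (adjusted p = 0.000736). Abcg1 was at 1.47 and 1.72 TPM in the naïve line, 2.24 and 1.87 in AKO, 0.494 and 0.524 in DKO, 2.54 and 2.45 in GKO, and 0.330 and 0.106 in the primed line. It fell in DKO (log2 change -0.78, SE 0.11, adjusted p = 0.000479; log2 change -1.01, SE 0.11, adjusted p = 0.000113 against AKO), and GKO was above DKO (log2 change 1.21, SE 0.11, adjusted p = 5.35e-05). At such levels the size depended on the pseudocount, and with 0.1 the change of Abcg1 in DKO was -1.47 against naïve ESCs and -1.82 against AKO. The pumps thus moved in opposite directions in DKO, and both fell in primed ESCs. A rise of Abcg1 in GKO (adjusted p = 0.00889) lost its call with that pseudocount (0.109) and without replicate 1 of naïve ESCs (0.0689) or of GKO (0.0514).

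Mylip encodes an LXR-induced ubiquitin ligase that removes lipoprotein receptors. It was at 2.96 and 3.21 TPM in the naïve line, 4.13 and 3.48 in AKO, 1.59 and 1.82 in DKO, 1.35 and 1.77 in GKO, and 0.812 and 0.890 in the primed line. It fell in GKO (log2 change -0.68, SE 0.11, adjusted p = 0.000849) and in DKO (log2 change -0.59, SE 0.11, adjusted p = 0.00199; log2 change -0.83, SE 0.11, adjusted p = 0.000341 against AKO), so this LXR target went the other way from Abca1 in both lines. Nr1h2 (LXRβ) was at 52.3 and 51.5 TPM in the naïve line, 53.5 and 51.5 in AKO, 36.7 and 42.04 in DKO, 46.04 and 46.6 in GKO, and 30.1 and 33.7 in the primed line, and passed as lower in DKO and primed ESCs. In GKO it did not pass (adjusted p = 0.0908), except when only the lines compared were fitted (0.00822) or without the primed libraries (0.0455). Nr1h3, which the filter left out, was at 0.278 and 0.211 TPM in the naïve line, 0.063 and 0.229 in AKO, 0.732 and 0.512 in DKO, 0.747 and 0.817 in GKO, and 0.973 and 0.621 in the primed line. With no filter on low values it passed as higher against naïve ESCs in GKO (adjusted p = 0.0112), DKO (0.0423) and primed ESCs (0.00508), and in DKO against AKO (0.0145).

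The largest interaction values were those of Abcg1 (log2 change 1.45, SE 0.15, adjusted p = 0.000368), Insig1 (log2 change 0.78, SE 0.07, adjusted p = 0.000195), Cyp51 (log2 change 0.67, SE 0.15, adjusted p = 0.0113), Sc5d (log2 change 0.61, SE 0.09, adjusted p = 0.00153) and Abca1 (log2 change 0.55, SE 0.11, adjusted p = 0.00780). In Insig1 and Sc5d, DKO fell below AKO while GKO did not fall below naïve ESCs. Abca1 was higher in both lines labelled as lacking GYS1 and more so in GKO, and it lost the call with a pseudocount of 0.1 (adjusted p = 0.0794, the highest of its alternatives, which began at 0.00412). The other 6 genes, Msmo1, Fdps, Fdft1, Dhcr7, Stard4 and Srebf2, had values between 0.32 and 0.52.

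Lists around the pathway were counted in the same way, and the genes named from them were chosen after their values were seen. Beside their counts stand 80.0% of all genes in primed ESCs (37.4% higher, 42.5% lower), 51.7% in GKO (24.7%, 27.1%) and 46.0% in DKO (21.7%, 24.3%). Of 11 genes of the isoprenoid and dolichol branch, 9 passed in primed ESCs (4 higher, 5 lower), 5 in GKO (3 higher, 2 lower) and 4 in DKO (3 higher, 1 lower). Ggps1, which makes geranylgeranyl diphosphate, was among those higher, at 7.49 and 7.72 TPM in naïve ESCs and 17.4 and 18.7 in primed ESCs. Of 8 genes of SREBP processing and enzyme turnover, 7 passed in primed ESCs (3 higher, 4 lower), and 6 each in GKO (3 higher, 3 lower) and DKO (2 higher, 4 lower). Erlin1, which binds sterol-rich membrane of the endoplasmic reticulum, was at 12.2 and 12.1 TPM in the naïve line and 3.73 and 3.85 in primed ESCs.

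Of 18 other genes of sterol handling, 14 were tested, and 12 passed in primed ESCs (8 higher, 4 lower; all genes 80.0%), 4 in GKO (2 higher, 2 lower; all genes 51.7%) and 6 in DKO (2 higher, 4 lower; all genes 46.0%). Among the 8, Cyp46a1 and Vldlr reached 1 TPM in primed ESCs alone and so passed the filter through that line. The lipoprotein receptor Lrp8 measured 2.002 and 1.96 TPM in naïve ESCs, 0.725 and 0.867 in DKO, 1.72 and 1.98 in GKO, and 14.5 and 12.8 in the primed line. Lbr, whose product has sterol reductase activity like that of Tm7sf2, was at 93.5 and 95.4 TPM in the naïve line, 75.1 and 71.3 in DKO, 92.8 and 99.5 in GKO, and 95.6 and 86.7 in the primed line. Of 5 other LXR targets, 4 were tested, with 3 passing in primed ESCs (1 higher, 2 lower), 1 in GKO (higher) and 2 in DKO (1 higher, 1 lower). In AKO no gene of these 4 lists passed, beside 0.224% of all genes.

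Fatty acid synthesis shares the SREBP system, and its 13 listed genes summed to 948 and 946 TPM in naïve ESCs, 975 and 957 in AKO, 662 and 661 in DKO, 789.5 and 816 in GKO, and 1654 and 1458 in the primed line. In primed ESCs 11 were higher and 2 lower (all genes 37.4% and 42.5%), in DKO 2 higher and 8 lower (21.7% and 24.3%), and in GKO 1 higher and 7 lower (24.7% and 27.1%). With quantile normalization, 5 were lower in GKO and 6 in DKO, beside 5912 and 5303 of all genes that passed in either direction. With median-ratio scaling, 5 and 7 were lower, beside 6093 and 5504. The counts of higher genes in GKO and DKO stayed at 1 and 2. The sum of these 13 genes was below naïve ESCs in both lines labelled as lacking GYS1, whereas that of the sterol enzymes was below in DKO and above in GKO. Scd2 was the most abundant of the 13. Chromosome medians were not taken for these genes, so the part of their chromosomes in the changes was not tested. Scd1, a desaturase, was low in primed ESCs, at 59.2 and 55.4 TPM in naïve ESCs, 58.9 and 58.2 in AKO, 34.7 and 36.6 in DKO, 59.1 and 62.2 in GKO, and 2.77 and 0.632 in the primed line. Its paralog Scd2 was at 358 and 352 TPM in the naïve line, 185 and 182 in DKO, 262 and 281 in GKO, and 604 and 549 in the primed line.

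Promoter sequences were available for 26 of the 32 genes (35 promoters of 300 bases, RefSeq, GRCm38.p6), and Fdps, Fdft1, Sqle, Stard4, Npc1 and Abcg1 had no entry. The SREBP element TCACNCCAC, in either strand, was in 1 of the 35, that of Hmgcs1, and in 1.24% of all 32851 promoters. The NF-Y box CCAAT was in 22 of the 35 (62.9%), against 37.4% of all promoters and 38.4% of those of tested genes. The Sp1 box GGGCGG was in 27 of the 35 (77.1%), against 35.7% and 64.1%. Of the 18 enzyme promoters, 14 held an NF-Y box and 15 an Sp1 box. These counts describe letters and not binding.

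Shown here are the 150 bases before the start of 5 genes, the 3 with the largest rise (Soat1, Msmo1, Hmgcs1) and the 2 with the largest fall (Insig1, Abca1) of log2(TPM + 1) in primed ESCs, written in the direction of the gene. Capitals mark the motifs on either strand, so that ATTGG and CCGCCC are the NF-Y and Sp1 boxes of the other strand.
Hmgcs1 (chr13:119690201-119690350, plus strand): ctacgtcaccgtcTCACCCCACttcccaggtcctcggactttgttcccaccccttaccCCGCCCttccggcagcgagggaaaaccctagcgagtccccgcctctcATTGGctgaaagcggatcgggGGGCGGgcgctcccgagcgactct
Msmo1 (chr8:64733579-64733728, minus strand): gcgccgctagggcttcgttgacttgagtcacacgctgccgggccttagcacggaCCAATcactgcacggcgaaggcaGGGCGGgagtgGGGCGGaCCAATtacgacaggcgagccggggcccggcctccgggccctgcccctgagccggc
Soat1 (chr1:156474329-156474478, minus strand): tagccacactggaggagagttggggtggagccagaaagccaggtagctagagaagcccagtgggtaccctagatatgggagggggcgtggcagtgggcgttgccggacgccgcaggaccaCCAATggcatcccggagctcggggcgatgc
Insig1 (chr5:28071262-28071411, plus strand): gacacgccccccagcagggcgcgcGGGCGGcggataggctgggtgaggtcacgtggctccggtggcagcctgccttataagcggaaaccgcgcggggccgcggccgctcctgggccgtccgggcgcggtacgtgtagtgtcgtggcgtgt
Abca1 (chr4:53159896-53160045, minus strand): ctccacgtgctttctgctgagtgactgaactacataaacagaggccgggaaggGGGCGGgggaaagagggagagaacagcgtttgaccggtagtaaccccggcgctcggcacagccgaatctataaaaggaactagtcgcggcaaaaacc
The SREBP element of Hmgcs1 began 137 bases before the start. In these windows Hmgcs1 held 1 NF-Y box and 2 Sp1 boxes, Msmo1 2 of each, Soat1 1 NF-Y box, and Insig1 and Abca1 1 Sp1 box each.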

How the data were processed

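RNA from 10 libraries was sequenced, and the authors deposited TPM per protein-coding gene, estimated with RSEM 1.3.3 after trimming and STAR alignment. The sources differ on details: the study's methods name GRCm39 and an MGI library kit for J1, GKO and PJ1, whereas the submitters' notes name GRCm38 and GRCh38, and the labels an Illumina kit. STAR 2.7.9a is named in those notes and in the study's list of tools, but the study's processing section names another version. Depth is unknown, since TPM keeps none, and reads shared by similar genes were divided by an RSEM estimate. The scale was log2(TPM + 1), on which changes of low genes shrink. A filter of 1 TPM or more in 2 or more libraries kept 12060 of 21853 genes.

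Tests came from limma 3.58.1 under R 4.3.3 (1 fit over all 10 libraries, a mean per line, intensity trend, two-sided), with Benjamini-Hochberg adjustment over all genes within each comparison and a threshold of 0.05; the scripts were first checked on simulated data. The fit took 1 spread per gene for all lines, although the primed libraries differed more from each other. Over all tested genes their median absolute log2 difference was 0.1268, against 0.0555 to 0.0704 in the J1 lines. SEs may thus be too small for primed ESCs and too large among the J1 lines. With 2 against 2 libraries, no two-sided exact p under 0.333 is possible for a single gene. Full statistics were given for sterol genes that passed without overlap between the lines (the 8 largest changes in GKO, DKO and primed ESCs against naïve ESCs, the 5 largest in other comparisons), and for Srebf1, Srebf2, Scap, Insig1 and Insig2 in GKO and DKO. Medians of the other genes of a chromosome, and of up to 20 nearest tested genes on each side (chosen after seeing the data), used GENCODE positions in GRCm39, found for 11575 tested genes. The genes and lists were chosen with earlier results of these data known.

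Alternatives changed the pseudocount to 0.1, dropped the filter or asked for a mean of 5 TPM, scaled by median ratios or by quantile normalization, removed the trend, blocked on the replicate number, fitted only the compared lines or all but the primed libraries, asked for an absolute log2 change of 0.5, and left out each library.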

Additional observations from a re-analysis of the deposited data

Results flagged for a closer look

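For 11 sterol genes, the difference of GKO from naïve ESCs exceeded that of DKO from AKO by the interaction term in limma, on the log2(TPM + 1) scale. Their values were 1.45 for Abcg1, 0.78 for Insig1, 0.67 for Cyp51, 0.61 for Sc5d and 0.55 for Abca1. For Msmo1 the value was 0.52 (adjusted p = 0.00207), and for Fdft1 it was 0.42 (adjusted p = 0.00776). Srebf2 had a value of 0.32. Fdps had 0.43 (adjusted p = 0.0129), which lost the call without replicate 2 of naïve ESCs (adjusted p = 0.0541) or replicate 1 of AKO (0.0543). Stard4 had 0.36 (adjusted p = 0.0148), which lost it without replicate 1 of naïve ESCs (0.0641) or replicate 2 of GKO (0.0547). Dhcr7 had 0.41 (adjusted p = 0.0288), which lost it with no filter on low values (0.0560) and without replicate 1 of naïve ESCs (0.108), replicate 1 of AKO (0.104), replicate 2 of DKO (0.102) or replicate 2 of GKO (0.101). Over their alternatives the adjusted p ranged from 0.00238 to 0.0543 for Fdps, from 0.0104 to 0.0641 for Stard4 and from 0.0199 to 0.108 for Dhcr7.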

How the results depend on the processing

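Over 727 alternative values for the 54 gene results tried, mostly large changes, 707 kept their direction and their side of the threshold, 14 lost the call, 3 gained one and 3 changed sign. The sign changes were in genes of GKO against naïve ESCs that had not passed: Srebf2 was 0.011 with quantile normalization, Insig2 -0.025 without replicate 1 of GKO (0.14 without replicate 2) and Scap -0.015 without replicate 2 of GKO (0.12 without replicate 1). The cause was not tested. Requiring an absolute log2 change of at least 0.5 left 8 of 17 sterol genes in GKO and 9 of 21 in DKO against naïve ESCs, and 2401 of 6241 and 1941 of 5544 among all genes. It left 6 of 18 (all genes 1819 of 5252) in GKO against DKO, 11 of 20 (1932 of 5587) in DKO against AKO and 6 of 11 (1698 of 3116) in the interaction, since it removes small changes by construction. The filter at a mean of 5 TPM kept 14 of the calls in GKO, 18 in DKO, 24 in primed ESCs, 16 in GKO against DKO, 17 in DKO against AKO and 9 in the interaction, and drops low genes untested. Among all genes, 4546, 4148, 6546, 3817, 4154 and 2266 passed with that filter, in the same order. Apart from these 2 settings, some alternative removed the call of 4 of 17 in GKO (Abcg1, Sqle, Msmo1, Sc5d), 6 of 21 in DKO (Srebf1, Hsd17b7, Cyp51, Stard4, Sc5d, Tm7sf2), 0 of 27 in primed ESCs, 3 of 18 in GKO against DKO (Lss, Nr1h2, Scap), 3 of 20 in DKO against AKO (Hsd17b7, Srebf1, Pmvk) and 4 of 11 in the interaction (Abca1, Dhcr7, Stard4, Fdps). Some alternative gave a call to 6 other genes in GKO, 5 in DKO, 4 in primed ESCs, 5 in GKO against DKO, 4 in DKO against AKO and 4 in the interaction.

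All other alternatives kept each count of sterol genes within 1.5 times, while the counts of all genes moved by more in AKO and in the interaction. Without 1 library, the counts ranged from 13 to 16 in GKO (all genes 4581 to 4817), from 15 to 18 in DKO (3983 to 4293), from 27 to 28 in primed ESCs (8805 to 9616), from 15 to 17 in GKO against DKO (3540 to 3943), from 17 to 18 in DKO against AKO (4100 to 4292) and from 9 to 11 in the interaction (1944 to 2400). The count of sterol genes in AKO was 0 under every alternative. Of all genes, 27 passed there in the main fit, 0 when only the lines compared were fitted and 131 without the primed libraries. A line left with 1 library is assumed to vary like the others. With the replicate number as a replicate block, the counts were 17 in GKO, 21 in DKO, 0 in AKO, 27 in primed ESCs, 17 in GKO against DKO, 19 in DKO against AKO and 11 in the interaction. Those of all genes were 6046, 5382, 8, 9573, 5034, 5409 and 2875, in the same order. Same-numbered libraries did not deviate together (correlations of -0.128 to 0.078 between lines), so the numbers do not pair the libraries. TPM holds no depth, so no limit of detection can be given for genes near 0, and changes of low genes such as Abcg1 and Abca1, and of Insig1 in primed ESCs, depend on the pseudocount.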
